A study of Mus musculus with 8 samples.

Results

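The transcripts of 9 genes that encode subunits or partners of the Polycomb repressive complexes were followed in cultured mouse spermatogonial stem cells (SSCs) exposed to retinoic acid (RA), to nutrient restriction (NR) or to both (NRRA). The genes are *Ezh1*, *Ezh2*, *Eed*, *Suz12*, *Jarid2*, *Bmi1*, *Cbx2*, *Cbx7* and *Scml2*, and each was found in the count table by its gene name. They are 9 of 55421 gene identifiers in the table, and 9 of 9 passed the expression filter that left 20477 genes for testing. Membership was set by gene name and by no threshold on a measured value. The genes were nevertheless chosen with earlier results of these data known.

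Polycomb group proteins keep developmental genes silent and work in 2 kinds of complex. Polycomb repressive complex 2 (PRC2) trimethylates lysine 27 of histone H3 through the alternative enzymes EZH1 or EZH2, which are active only together with EED and SUZ12, while JARID2 is an accessory subunit that helps to place the complex on chromatin. Polycomb repressive complex 1 (PRC1) ubiquitinates histone H2A. Its canonical forms hold a PCGF protein such as BMI1 and a CBX protein such as CBX2 or CBX7, which reads the mark left by PRC2. SCML2 is a germline partner of PRC1 known from spermatogonia and later male germ cells. In the male germline these complexes are known to hold developmental genes in check and to take part in the timing of spermatogonial differentiation and meiosis.

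The SSC cultures had been established from testes of pups aged 6 days of a C57BL/6XDBA/2 cross and grew on irradiated mouse embryonic fibroblasts of outbred CF1 mice, so RNA of feeder cells can be part of each library. Vehicle cultures (Veh) stayed in complete SSC medium, RA cultures received 100 nM RA in that medium, NR cultures received 10% complete medium with 90% Earle's balanced salt solution (EBSS), and NRRA cultures received the restricted medium with 100 nM RA. Treatment lasted 2 days, and every medium was based on the same complete SSC medium with its growth factors, which the salt solution diluted in NR and NRRA. Sequencing covered poly(A) RNA from 2 biological replicates of each condition, described as independent, which gives 8 libraries.

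Counts per library summed to between 19261333 and 30023585, so that 1 unit of CPM, counts scaled to library size, stands for 19 to 31 reads. Expression is given as CPM after scaling by edgeR's TMM method, as mean ± SD of 2 libraries, and levels are compared between genes only as CPM per kilobase of exon. A gene was said to rise or fall when its Benjamini-Hochberg adjusted p over all 20477 genes was under 0.05 in edgeR's quasi-likelihood test, and a second, stricter rule also asked for a fold change of at least 2. With 2 replicates per condition the fit has 4 residual degrees of freedom. Germ cell markers were present in every condition, with a summed level of 901.9 CPM for Veh, 953.5 for RA, 1134 for NR and 1114 for NRRA over 6 markers. Against Veh, 2 of the 6 were higher and 4 lower in RA, 5 higher in NR, and 3 higher and 3 lower in NRRA. A second fit freed each library of the trend of its counts on GC content and gene length. It gave 1 higher and 4 lower in RA, 4 higher and 1 lower in NR, and 2 higher and 3 lower in NRRA. The 12 fibroblast markers summed to 19440 CPM for Veh, 16270 for RA, 32120 for NR and 25570 for NRRA, but did not move as 1. In NR 9 of 12 rose and 2 fell against Veh, with log2 fold changes from -0.87 to 1.68. In RA 1 rose and 8 fell, and in NRRA 7 rose and 5 fell. Of the Sertoli and Leydig cell markers, *Amh*, *Fshr*, *Lhcgr* and *Insl3* had at most 9 reads in any library. The 4 Sertoli markers that could be tested summed to 45.8 CPM for Veh, 104.5 with RA, 50.3 with NR and 42.9 with NRRA, and *Clu*, which other cell types also express, made up 80.2 CPM of the RA level. The 2 Leydig markers tested summed to 7.87, 13.8, 6.14 and 6.83 CPM in the same order, and the 5 macrophage markers to between 109.5 and 147.9 CPM. The part of these cells in the results was not tested. In bulk RNA a change in the number of cells of a type and a change in RNA per cell cannot be told apart.

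Promoter sequences of 4 genes are shown because these genes had the largest changes among the 9. *Jarid2*, *Ezh1* and *Cbx7* moved together in both arms with RA, and *Ezh2* moved in NR. RefSeq promoter windows (GRCm38.p6) of 300 bases, from 250 before to 50 after a transcript start (position 1), were matched for 8 of 9 genes (*Cbx2* had none), with 2 windows for *Jarid2*. Exact matches on both strands were searched for AGGTCA, the core site of retinoid receptors, for TTCCCGC and TTGGCGC, which E2F factors bind, for CCCTCAG, part of the motif bound by STRA8, and for CACGTG, the E-box. The sequences below run 5′ to 3′ on the strand of the gene and cover the 250 bases before the start, with motif matches in capitals.
Jarid2, chr13:44730524-44730773, plus strand: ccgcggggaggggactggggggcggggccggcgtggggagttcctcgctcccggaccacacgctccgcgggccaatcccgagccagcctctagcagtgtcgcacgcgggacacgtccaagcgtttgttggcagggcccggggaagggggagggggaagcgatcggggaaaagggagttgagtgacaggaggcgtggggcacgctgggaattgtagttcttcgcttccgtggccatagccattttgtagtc
Ezh1, chr11:101226464-101226713, minus strand: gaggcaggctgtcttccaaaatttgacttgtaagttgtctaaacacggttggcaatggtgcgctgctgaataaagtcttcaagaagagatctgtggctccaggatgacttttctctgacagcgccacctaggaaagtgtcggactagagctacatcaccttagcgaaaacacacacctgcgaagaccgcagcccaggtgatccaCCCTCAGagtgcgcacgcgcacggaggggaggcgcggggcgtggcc
Cbx7, chr15:79932647-79932896, minus strand: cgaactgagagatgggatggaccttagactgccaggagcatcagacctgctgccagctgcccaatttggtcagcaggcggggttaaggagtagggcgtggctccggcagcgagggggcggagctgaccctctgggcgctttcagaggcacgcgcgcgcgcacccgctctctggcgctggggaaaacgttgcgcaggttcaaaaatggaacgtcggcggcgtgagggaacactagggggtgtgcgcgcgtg
The *Ezh1* sequence holds CCCTCAG at position -46. Neither *Jarid2* window nor the *Cbx7* window held any of the 5 motifs, and no window of the 9 held AGGTCA. Around the start of *Ezh2* the match is to TTGGCGC, at position 5:
Ezh2, chr6:47595010-47595036, minus strand: gttgctgcgtTTGGCGCtcggtccggt
The remaining matches were TTCCCGC at position -218 of *Suz12* and CACGTG at position -215 of *Bmi1*. Among all 32851 windows in the RefSeq table, 16.3% held AGGTCA, 4.6% TTCCCGC, 2.45% TTGGCGC, 7.72% CCCTCAG and 7.15% CACGTG. These matches describe letters in short windows and were not tested against expression.

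Seen over the 3 treatments, the 9 genes did not move as a block. Against Veh, 6 of 9 changed in RA (3 higher, 3 lower), 5 of 9 in NR (3 higher, 2 lower) and 7 of 9 in NRRA (4 higher, 3 lower). Among all genes tested, 43.2% were called in RA vs Veh, 43.9% in NR vs Veh and 58.9% in NRRA vs Veh. By direction, 19.8% of all genes rose and 23.4% fell in RA, 21.7% rose and 22.2% fell in NR, and 30.1% rose and 28.7% fell in NRRA. Libraries of the 2 conditions did not overlap for 7 of 9 genes in RA, 6 of 9 in NR and 7 of 9 in NRRA against Veh. Over all genes this held for 68.1%, 69% and 77.3%, so separate libraries are common here. With 9 genes nothing particular to them is read from these shares. The median log2 fold change of the 9 was 0.06 for RA, 0.11 for NR and 0.06 for NRRA, beside -0.02, 0.01 and 0.03 over all genes. In size the changes were moderate. No member reached a fold change of 2 in any comparison at any p, while 7.49%, 8.29% and 15.9% of all genes did so with an adjusted p under 0.05 in RA, NR and NRRA against Veh. The largest change was that of *Jarid2* in NRRA, at -0.85 on the log2 scale. The plot of CPM by library shows the values, and the plot of fold changes shows all 5 pairwise comparisons.

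**Figure D1:**
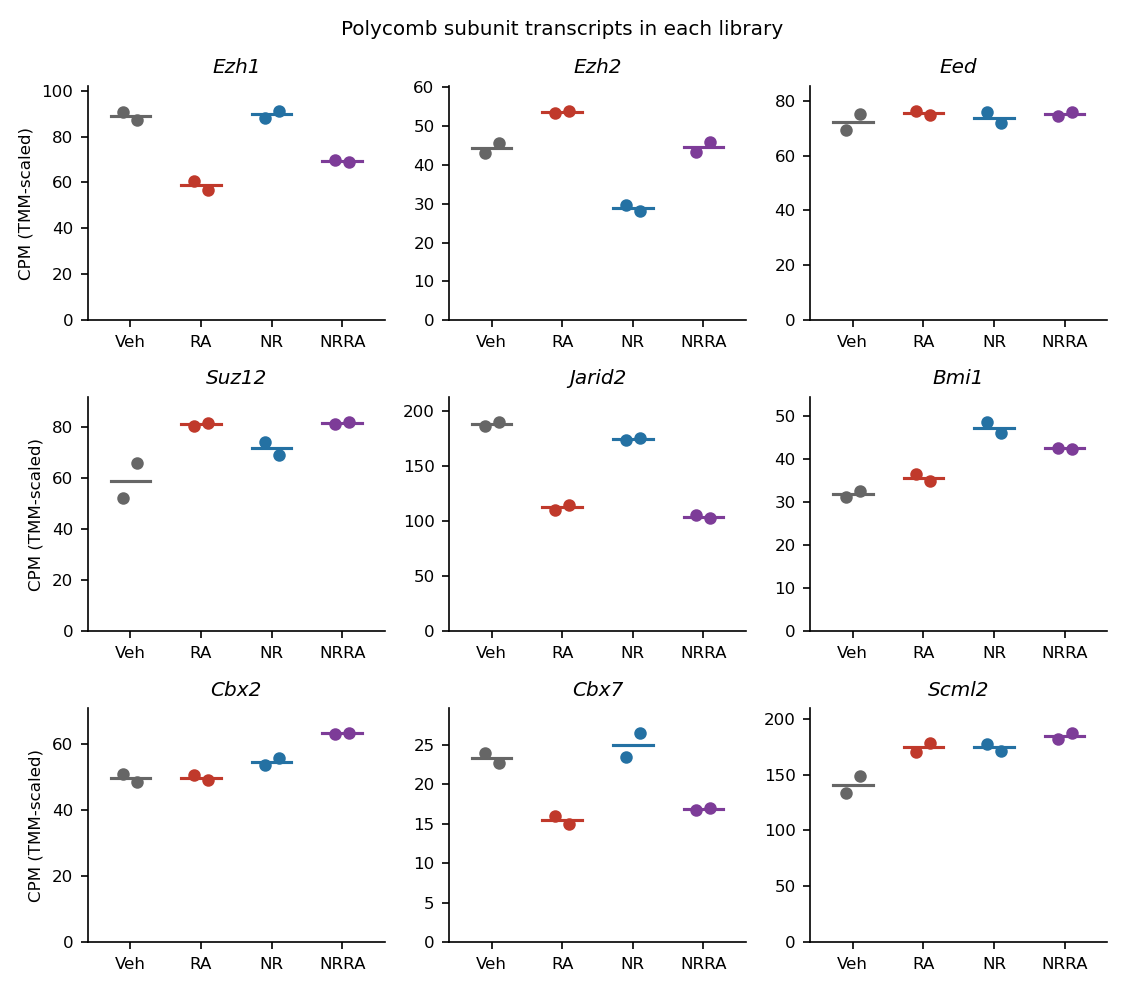
CPM (TMM-scaled, y axis from 0) of each of the 9 genes in the 8 libraries, with 1 point per library and a line at the mean of each condition. *Ezh1*, *Jarid2* and *Cbx7* lie lower in RA and NRRA than in Veh and NR, *Ezh2* is lowest in NR, and *Eed* lies between 69.4 and 76.2 CPM throughout.

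**Figure D2:**
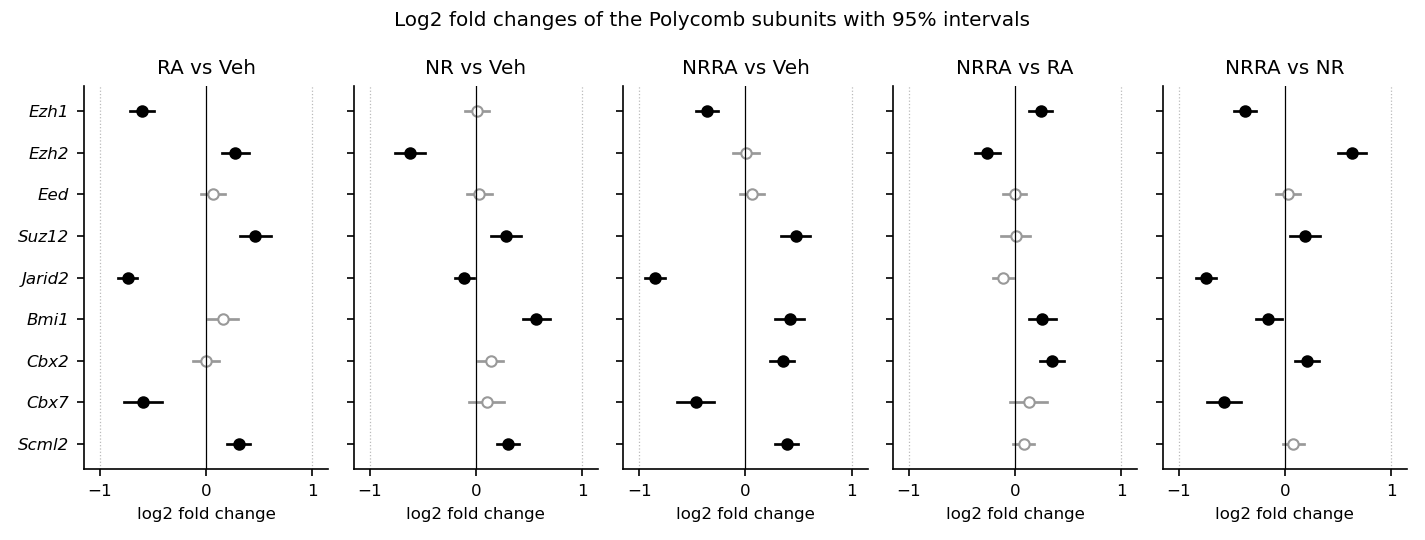
Log2 fold change (x axis) of the 9 genes in 5 comparisons, with 95% intervals from the edgeR fit. Filled points passed an adjusted p of 0.05, open points did not, and dotted lines mark a fold change of 2, which no gene reached.

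The catalytic subunits *Ezh1* and *Ezh2* moved in opposite directions with RA, and *Ezh2* also fell in NR. *Ezh1* (chromosome 11, 101191115 to 101226463, minus strand, GRCm38), which encodes the less active enzyme of many non-dividing tissues, was measured at 90.8 and 87.3 CPM for Veh, 60.7 and 56.8 for RA, 88.2 and 91.1 for NR, then 69.8 and 68.7 for NRRA. Both libraries with RA alone lay lowest, the NRRA libraries lay next, and the Veh and NR libraries overlapped. *Ezh1* fell in RA (log2 -0.61, SE 0.0545, adjusted p = 1.17e-09), a level 1.52-fold lower than in Veh. In NRRA it was 1.29-fold lower than in Veh (log2 -0.36, SE 0.0527, adjusted p = 1.41e-06). NR alone gave a log2 fold change of 0.01 with a 95% interval from -0.10 to 0.12. NRRA lay above RA by 0.24 (SE 0.0538, adjusted p = 0.000684), and the effect of RA was smaller in restricted than in complete medium, with an interaction (NRRA vs NR minus RA vs Veh) of 0.23 (SE 0.0752, adjusted p = 0.0414). That interaction passed in 2 of 8 fits with a library left out, and not with DESeq2 (adjusted p = 0.135).

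*Ezh2* (chromosome 6, 47530139 to 47595341, minus strand) encodes the enzyme that prevails in dividing cells, and it had the widest range of the 9 genes, 1.85-fold between its lowest and highest condition. It was measured at 42.9 and 45.7 CPM for Veh, 53.2 and 53.8 for RA, 29.5 and 28.2 for NR, then 43.2 and 45.9 for NRRA. The NR libraries lay below all others, the RA libraries above all others, and those of Veh and NRRA overlapped. In NR it fell (log2 -0.62, SE 0.0659, adjusted p = 1.62e-08), to a level 1.54-fold lower than in Veh. In RA it rose by 0.27 (SE 0.061, adjusted p = 0.000689). Adding RA to restricted medium raised it by 0.63 (SE 0.063, adjusted p = 5.88e-09), and NRRA differed from Veh by 0.01, with an interval from -0.12 to 0.13. The response to RA was larger under restriction by 0.36 (SE 0.088, adjusted p = 0.00664).

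Not every part of the *Ezh2* pattern held when each library was freed of the trend of its counts on GC content and length. *Ezh2* transcripts hold 44.1% GC. Among genes under 45% GC whose mean count reached 50, median log2 fold changes against Veh were 0.20 for RA, 0.15 for NR and 0.26 for NRRA, whereas they were -0.15, -0.09 and -0.13 above 55% GC. With the trend removed, the fall in NR was -0.74 (adjusted p = 2.05e-13) and the interaction 0.43 (adjusted p = 5.24e-05). The rise in RA was then 0.11 and lost its call (adjusted p = 0.079), and NRRA lay below Veh by -0.20 (adjusted p = 0.00157). NRRA vs NR (0.55) and NRRA vs RA (-0.31) passed in that fit as well. Leaving out the second replicate of NR or of NRRA ended the interaction call (adjusted p = 0.109 and 0.0648).

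Genes of DNA replication and mitosis moved in NR as well. Of 16 such genes, 14 were lower and 1 higher in NR against Veh, and the ribonucleotide reductase subunit *Rrm2* fell from 78.0 to 42.2 CPM. In RA, where *Ezh2* did not fall, 6 of 16 were lower and 1 was higher. In NRRA 12 of 16 were lower than in Veh, 2 were higher, and 9 of 16 were higher than in NR. The largest change of the list in NRRA against Veh was a rise, that of *Mki67* (log2 0.80). With the trend removed *Mki67* was at 0.59 in RA, 0.12 in NR (adjusted p = 0.103) and 0.65 in NRRA. The part of proliferation in the level of *Ezh2* was not tested. The summed fibroblast markers, given above, were higher in NR than in Veh, and their part was not tested.

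The balance of the 2 enzymes' transcripts differed between conditions. Per kilobase, *Ezh2* stood at 0.554 ± 0.0393 of the *Ezh1* level in Veh (SD, n = 2), 1.02 ± 0.0545 in RA, 0.359 ± 0.02 in NR and 0.716 ± 0.039 in NRRA. In RA the ratio was 0.976 in the first library and 1.05 in the second. In NR it was 0.373 and 0.345. No ranges of the ratio overlapped between conditions. Lengths are those of all exons of a gene together, whichever transcripts the cells expressed, so a ratio near 1 does not establish equal amounts. The GC content and length trend was not removed from the ratio. The ratio is a description and was not tested.

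**Figure D3:**
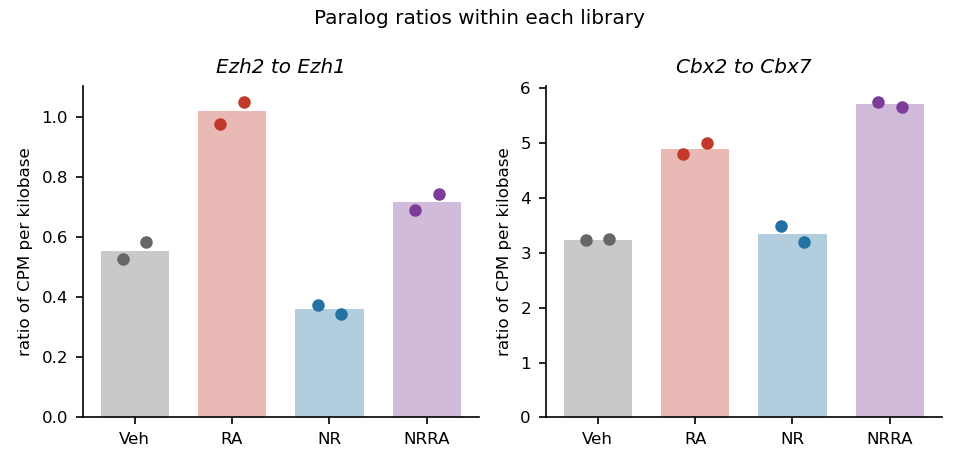
Ratio of CPM per kilobase of *Ezh2* to *Ezh1* (left) and of *Cbx2* to *Cbx7* (right) within each library (y axis from 0). Bars are means of 2 libraries and points are the libraries, and the *Ezh2* to *Ezh1* ratio runs from 0.359 in NR to 1.02 in RA. The trend on GC content and gene length was not removed.

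The obligate core partners differed from the enzymes and from each other. *Eed* (chromosome 7, 89954654 to 89980983, minus strand), whose protein binds the PRC2 mark and stimulates the enzyme, was measured at 69.4 and 74.9 CPM for Veh, 76.2 and 74.8 for RA, 75.9 and 71.7 for NR, then 74.3 and 76.0 for NRRA. Its libraries overlapped in all comparisons, and it passed the test in none. The 95% intervals of its log2 fold change against Veh ran from -0.05 to 0.18 in RA, from -0.08 to 0.15 in NR and from -0.05 to 0.17 in NRRA, which leaves room for changes of up to those bounds. Scaling by library totals alone put *Eed* past the threshold at 0.17 in RA (adjusted p = 0.0179) and 0.17 in NRRA (adjusted p = 0.00844), and that scaling moved the median of all genes by up to 0.14. An antisense gene, *E230029C05Rik*, overlaps 6.8% of its exon bases.

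*Suz12* (chromosome 11, 79993106 to 80034123, plus strand), the scaffold of the complex, was higher in all treatments. It was measured at 52.1 and 65.7 CPM for Veh, 80.5 and 81.7 for RA, 74.3 and 69.1 for NR, then 81.1 and 81.9 for NRRA. Every treated library lay above both Veh libraries, and the Veh libraries differed more from each other than those of any other condition. RA raised it by 0.46 on the log2 scale (SE 0.071, adjusted p = 6.65e-06), NR by 0.28 (SE 0.0718, adjusted p = 0.00206), and the combination by 0.47 (SE 0.0699, adjusted p = 2.03e-06). Its sizes rest on the vehicle libraries. Without the first Veh library they were 0.33, 0.14 and 0.31, and the change in NR no longer passed (adjusted p = 0.0573), while without the second Veh library they were 0.66, 0.47 and 0.64. *Suz12* transcripts hold 40.8% GC. With the GC content and length trend removed RA gave 0.19 (adjusted p = 0.00167), NR gave 0.06 (adjusted p = 0.345) and the combination gave 0.13 (adjusted p = 0.0258). NRRA and RA did not differ beyond the spread of their libraries (0.01, interval from -0.13 to 0.14).

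*Jarid2* showed the largest change of the 9 genes. This gene (chromosome 13, 44729474 to 44921643, plus strand) encodes an accessory PRC2 subunit of the Jumonji family that lacks demethylase activity. It was measured at 187.0 and 190.2 CPM for Veh, 110.7 and 114.9 for RA, 173.6 and 176.2 for NR, then 105.5 and 103.2 for NRRA. All 4 libraries with RA lay below all 4 without it, by a wide margin. The log2 fold change was -0.74 in RA vs Veh (SE 0.0455, adjusted p = 6.72e-13), 1.67-fold lower, and -0.75 in NRRA vs NR (SE 0.0449, adjusted p = 2.9e-13), 1.68-fold lower. In NRRA it was 1.81-fold lower than in Veh (log2 -0.85, SE 0.0451, adjusted p = 7.75e-15). The interaction was -0.01 with a 95% interval from -0.14 to 0.13, which leaves room for differences between the media of up to those bounds. With the GC content and length trend removed the values were -0.71 for RA and -0.90 for NRRA against Veh. The fall lay between -0.77 and -0.71 in RA whichever library was left out. NR alone lowered *Jarid2* by only -0.11 (SE 0.0443, adjusted p = 0.0499). That call lies at the threshold and was lost in all 8 fits with a library left out and with DESeq2 (adjusted p = 0.0864), whereas it passed with the trend removed (-0.17, adjusted p = 0.000119).

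Most markers of undifferentiated spermatogonia were lower in the libraries with RA. Of 10 such markers, 9 were lower and 1 higher in RA, and 8 lower and 1 higher in NRRA, against Veh. In NR 5 were lower and 2 higher. *Ret*, the receptor subunit for GDNF, went from 232.9 CPM in Veh to 52.4 in RA and 31.8 in NRRA. The markers' summed level was 1066 CPM for Veh, 495.6 for RA, 929.9 for NR and 366.4 for NRRA. *Stra8*, a gene that RA is known to induce, was at 1.33 CPM for Veh, 642.3 for RA, 14.4 for NR and 937.4 for NRRA. The part of this shift in the levels of *Jarid2*, *Ezh1* and *Cbx7* was not tested.

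Among the PRC1 genes, *Cbx7* followed RA in the way of *Jarid2* and *Ezh1*. *Cbx7* (chromosome 15, 79915807 to 79971119, minus strand), a chromodomain protein known for silencing the *Cdkn2a* locus, was the lowest of the 9 genes, at 23.9 and 22.7 CPM for Veh, 16.1 and 15.0 for RA, 23.4 and 26.5 for NR, then 16.7 and 17.0 for NRRA. The libraries with RA lay below those without it. Log2 fold changes were -0.60 for RA vs Veh (SE 0.0864, adjusted p = 3.19e-06), -0.47 for NRRA vs Veh (SE 0.0825, adjusted p = 2.49e-05) and -0.57 for NRRA vs NR (SE 0.0794, adjusted p = 1.44e-06). With the trend removed the values were -0.48, -0.37 and -0.53. NR alone gave 0.11 with an interval from -0.06 to 0.27, and NRRA differed from RA by 0.13, with an interval from -0.05 to 0.30.

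*Cbx2* (chromosome 11, 119022962 to 119031270, plus strand), a CBX protein that compacts chromatin and is needed for testis development, did not follow RA alone. It was measured at 50.8 and 48.4 CPM for Veh, 50.5 and 49.0 for RA, 53.6 and 55.6 for NR, then 63.1 and 63.3 for NRRA. The NRRA libraries lay above all others, and those of Veh and RA overlapped. NRRA was higher than Veh by 0.35 (SE 0.0562, adjusted p = 6.72e-06), than RA by 0.35 (SE 0.0549, adjusted p = 9.98e-06) and than NR by 0.21 (SE 0.0544, adjusted p = 0.00269). RA alone gave 0.002 (interval from -0.12 to 0.12) and NR alone gave 0.14 (adjusted p = 0.0533). The departure from additivity itself did not pass the test (interaction 0.21, SE 0.08, adjusted p = 0.0919). *Cbx2* transcripts hold 58.1% GC, and with the trend removed RA and NR each passed, at 0.14 (adjusted p = 0.023) and 0.21 (adjusted p = 0.00067), with NRRA at 0.48 (adjusted p = 5.45e-11). Without the first NR library the difference from NR was 0.17 and did not pass (adjusted p = 0.078).

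The ratio of the 2 CBX transcripts moved as well. Per kilobase, *Cbx2* stood at 3.24 ± 0.00982 times the *Cbx7* level in Veh (SD, n = 2), at 4.89 ± 0.146 in RA, at 3.34 ± 0.208 in NR and at 5.71 ± 0.0609 in NRRA. Veh and NR overlapped, whereas both conditions with RA lay above them. *Cbx8* (119036305 to 119040969, minus strand), a neighbour of *Cbx2* on chromosome 11, rose from 8.86 to 13.7 CPM (log2 0.63) in NRRA against Veh.

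*Bmi1* (chromosome 2, 18677018 to 18686629, plus strand), the PCGF subunit known for the self-renewal of several kinds of stem cell, was the member with the largest rise in NR against Veh. It was measured at 31.1 and 32.6 CPM for Veh, 36.5 and 34.8 for RA, 48.5 and 46.0 for NR, then 42.5 and 42.4 for NRRA. No 2 conditions overlapped, and the order was Veh, RA, NRRA, NR. NR raised it by 0.57 (SE 0.0642, adjusted p = 4.6e-08) and the combination by 0.42 (SE 0.0635, adjusted p = 3.14e-06) against Veh. RA alone gave 0.16 (SE 0.0663, adjusted p = 0.0537). RA lowered it in restricted medium by -0.15 (SE 0.0588, adjusted p = 0.0366), and the interaction was -0.31 (SE 0.0886, adjusted p = 0.0175). *Bmi1* has the lowest GC content of the 9 genes, 40.4%, and its values changed most with the trend removed. The rise in NR was then 0.33 (adjusted p = 1.94e-05), the values for RA and NRRA against Veh were -0.12 (adjusted p = 0.119) and 0.04 (adjusted p = 0.551), and the interaction was -0.16 (adjusted p = 0.193). Leaving out 1 library ended the interaction call in the case of the first RA library, the first NR library and either NRRA library. The summed fibroblast markers were also higher in NR (32120 against 19440 CPM in Veh), with 9 of 12 higher and 2 lower. Their part in the rise of *Bmi1* was not tested.

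*Scml2* (chromosome X, 161117193 to 161258213, plus strand), which is known to act with PRC1 on the male germline genome, was the highest of the 9 genes per kilobase. Its level was 23.2 ± 1.77 CPM per kilobase in Veh (SD, n = 2) and 30.3 ± 0.652 in NRRA. In CPM it was measured at 133.3 and 148.5 CPM for Veh, 170.0 and 178.3 for RA, 177.4 and 171.0 for NR, then 181.4 and 187.0 for NRRA. Every treated library lay above both Veh libraries. RA raised it by 0.31 (SE 0.0505, adjusted p = 1.83e-05), NR also by 0.31 (SE 0.0506, adjusted p = 1.78e-05), and the combination by 0.39 (SE 0.05, adjusted p = 2.29e-07). RA added 0.08 in restricted medium (adjusted p = 0.191), and the interaction of -0.23 (SE 0.0703, adjusted p = 0.0319) passed the test. It did not pass without the second RA library, the first NR library or either NRRA library. *Scml2* transcripts hold 43.4% GC, and with the trend removed the rises were 0.13, 0.17 and 0.16, each past the threshold, while the interaction lost its call (adjusted p = 0.0501).

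**Figure D4:**
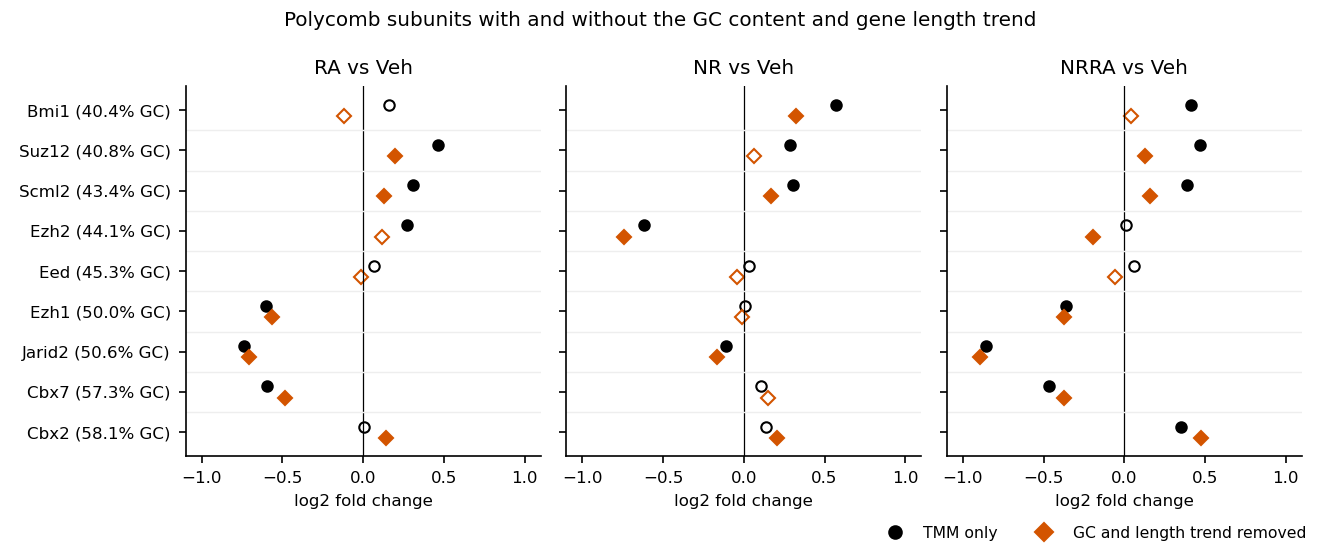
Log2 fold changes (x axis) of the 9 genes against Veh, ordered by the GC content of their transcripts, as fitted with TMM scaling alone (circles) and with the trend on GC content and gene length removed (diamonds). Filled marks passed an adjusted p of 0.05, and the 4 genes under 45% GC lie lower with the trend removed in each comparison.

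Direct comparisons of the combined treatment with its parts gave the same picture gene by gene. NRRA differed from RA in 4 of 9 genes, with *Ezh1*, *Bmi1* and *Cbx2* higher and *Ezh2* lower, against 40.3% of all genes called (20.9% higher, 19.4% lower). It differed from NR in 7 of 9 genes, with *Ezh2*, *Suz12* and *Cbx2* higher and *Ezh1*, *Jarid2*, *Bmi1* and *Cbx7* lower, against 43.4% of all genes (21.3% higher, 22.1% lower). The calls of *Suz12* (0.19) and *Bmi1* (-0.15) in NRRA vs NR passed in 4 and 5 of 8 fits with a library left out, and neither passed without the first NR library or either NRRA library. *Suz12* had an adjusted p of 0.264 with the trend removed. *Jarid2* differed between NRRA and RA by -0.11 (adjusted p = 0.051), at the threshold, so its call depends on the processing. It passed with DESeq2 (-0.13, adjusted p = 0.0494) and in a fit of the 2 conditions alone (-0.12, adjusted p = 0.0126). With the trend removed it was -0.19 (adjusted p = 4.27e-05). The interaction passed in 4 of 9 genes, *Ezh1*, *Ezh2*, *Bmi1* and *Scml2*, against 13% of all genes (6.37% higher, 6.58% lower). That of *Suz12* was -0.28 (SE 0.0979) and did not pass (adjusted p = 0.0623). It passed with DESeq2's size factors in place of TMM (-0.29, adjusted p = 0.0464), but not with the trend removed (-0.13, adjusted p = 0.214). The background at a fold change of 2 was 8.29% in NRRA vs RA, 8.7% in NRRA vs NR and 2.24% for the interaction, with no member among them. Libraries did not overlap for 7 of 9 genes in NRRA vs RA (69.9% of all genes) and 8 of 9 in NRRA vs NR (72.5%). The comparisons with Veh share the same control libraries, and those of NRRA share the same NRRA libraries.

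The other PRC2 components of the list changed in both directions. Of 9 genes, 2 were higher and 1 was lower in RA, 3 higher and 4 lower in NR, and 4 higher and 4 lower in NRRA, all against Veh. The counts with the trend removed were 1 higher and 3 lower for RA, 1 higher and 4 lower for NR, then 2 higher and 5 lower for NRRA. *Phf19*, a Polycomb-like subunit that binds methylated lysine 36 of histone H3, fell from 9.06 CPM in Veh to 3.95 in NR and 3.41 in NRRA (log2 -1.42 in NRRA, adjusted p = 1.6e-08). *Epop*, an elongin partner of PRC2, fell from 28.1 to 19.7 CPM in NRRA (log2 -0.51). *Lcorl* and *Lcor*, whose loci also encode the PRC2-binding PALI proteins, rose by 0.87 and 0.70 in NRRA, and by 0.12 (adjusted p = 0.146) and 0.33 with the trend removed. The list's median log2 fold change was 0.04 for RA, 0.13 for NR and -0.03 for NRRA, and -0.07, -0.15 and -0.25 with the trend removed.

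Among 11 further canonical PRC1 genes, 3 were higher and 4 lower in RA, 4 higher and 3 lower in NR, and 5 higher and 4 lower in NRRA against Veh. After removal of the trend, RA gave 5 higher and 3 lower, NR 3 higher and 3 lower, and NRRA 6 higher and 4 lower. *Rnf2*, which encodes the ubiquitin ligase RING1B at the core of PRC1, had the largest rise. It went from 47.7 ± 2.22 CPM in Veh to 76.1 ± 0.421 in RA, 54.2 ± 0.0751 in NR and 94.7 ± 1.16 in NRRA (SD, n = 2), which is 1.98-fold higher in NRRA than in Veh (log2 0.99, SE 0.0543, adjusted p = 1.72e-14), and a log2 fold change of 0.67 with the trend removed. *Scmh1*, a sex comb protein partner of PRC1, fell from 94.7 to 58.8 CPM in NRRA (log2 -0.69), and *Phc2*, a polyhomeotic subunit that bridges PRC1 complexes, from 180.1 to 128.6 CPM (log2 -0.49). *Scml4*, a gene of few reads named after its values were seen, had a log2 fold change of -1.84. The list's median was 0.03 in NRRA.

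Variant PRC1 complexes carry RYBP or YAF2 in place of a CBX protein of canonical PRC1. Their list also holds *Cbx1* and *Cbx3*. In RA 6 of its 20 genes were higher and 7 lower than in Veh. NR gave 6 higher and 5 lower, and NRRA gave 7 higher and 8 lower. The counts with the trend removed were 6 higher and 8 lower for RA, 4 higher and 8 lower for NR, then 6 higher and 12 lower for NRRA. *Pcgf5* rose by 0.81 and *Mga*, a MAX partner of the PCGF6 complex that is known to hold back meiotic genes, by 0.55 in NRRA against Veh, which became 0.37 and 0.14 with the trend removed. *Pcgf6* itself fell by -0.48 and *Bcor*, of the PCGF1 complex, by -0.58. *Mga* rose with NR alone by 0.60 and with RA alone by 0.38 (0.29 and 0.10 with the trend removed), while *Pcgf6* was higher in NR (0.19, and 0.12 with adjusted p = 0.149 when the trend was removed) and lower in RA (-0.28).

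Genes that remove Polycomb marks were counted too. Of 13 genes of the PR-DUB deubiquitinase and of H3K27 demethylases, 3 were higher and 2 lower in RA, 7 higher and 4 lower in NR, and 3 higher and 5 lower in NRRA against Veh. *Asxl3*, a PR-DUB scaffold, rose from 2.98 to 9.2 CPM in NRRA (log2 1.63) and *Asxl2* by 0.50 (0.15 with the trend removed), whereas *Foxk1* and *Foxk2*, which recruit BAP1, fell by 0.47 and 0.45. After removal of the trend, RA gave 3 higher and 5 lower, NR 5 higher and 3 lower, and NRRA 3 higher and 9 lower. None of these 4 lists moved in a single direction, as the plot of the wider Polycomb machinery shows.

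**Figure D5:**
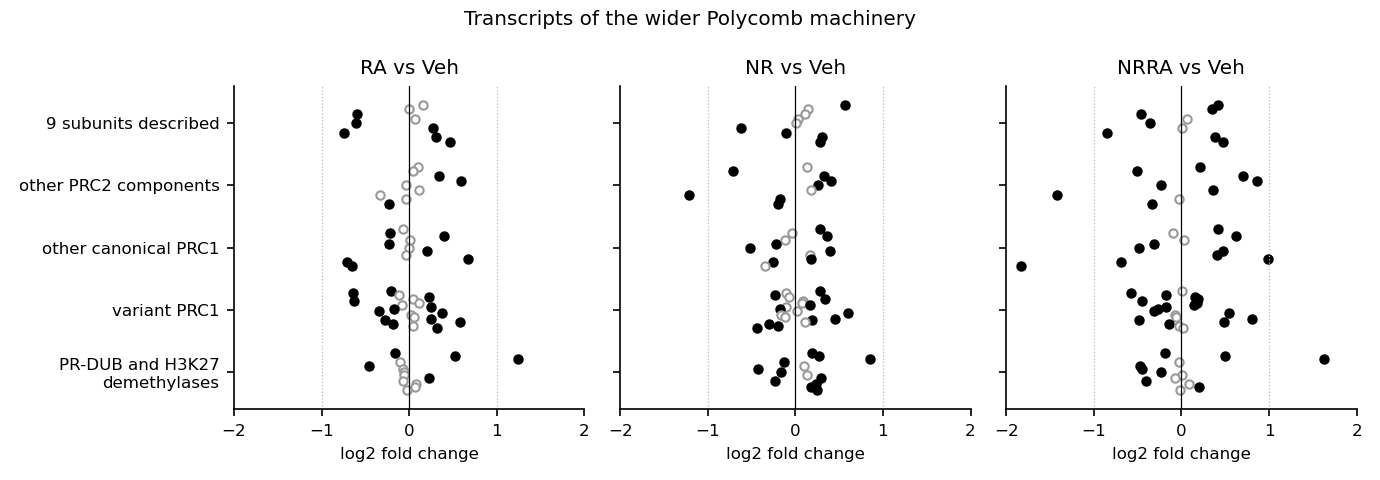
Log2 fold change (x axis) against Veh of the 9 genes and of 4 lists of other Polycomb genes, with 1 point per gene. Filled points passed an adjusted p of 0.05, and dotted lines mark a fold change of 2, which *Phf19* and *Scml4* passed on the low side and *Asxl3* on the high side in NRRA.

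Of 28 known developmental targets of Polycomb, 14 were too low to be tested, with at most 11 reads in any library, among them *Pax6*, *Sox17*, *Hand1* and *Neurog1*. Of the 14 that were tested, 2 were higher and 8 lower in RA, 2 higher and 10 lower in NR, and 4 higher and 9 lower in NRRA against Veh. The largest falls were those of *T*, which encodes Brachyury, from 6.80 CPM for Veh to 0.633 with RA, 3.02 with NR and 0.173 with NRRA, and of *Foxa2*, from 21.1 to 2.61, 9.89 and 1.20 CPM. *Lhx5* and *Msx2* fell in NRRA by -3.98 and -1.80. The summed level of the list was 403 CPM for Veh, 334 with RA, 227.2 with NR and 248.6 with NRRA. The part of Polycomb in these levels was not tested.

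For the 3 genes with the widest range of condition means, the genes most alike over the 8 libraries were ranked by Pearson's r of log2 CPM among the 14806 genes whose mean count reached 50. They were *Aqp1* (r = 0.996), *Sema3e* (0.995) and *Calm2* (0.994) for *Ezh2*, *Skor1* (0.997), *Heatr1* (0.996) and *Acss1* (0.996) for *Jarid2*, and *Armc7* (0.994), *Cd99l2* (0.993) and *Cebpb* (0.990) for *Cbx7*. The 8 libraries form 4 pairs of replicates, and 401, 1036 and 752 genes had an r above 0.9 with *Ezh2*, *Jarid2* and *Cbx7*, so a high r is common here and the ranking is a description.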

How the data were processed

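Poly(A) RNA-seq libraries of SSC cultures under 4 conditions, 2 per condition, were analysed from the raw gene counts that the authors deposited. Per the labels and the submitters' processing notes, reads were demultiplexed with bcl2fastq, aligned to mm10 with STAR 2.6.1c and counted per gene with featureCounts 1.6.4. The strand setting of the counting is not given in the sources used here, so reads of overlapping antisense genes cannot be told apart from those of the genes named. All 8 columns were tied to samples by name and 0 columns were left without one.

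Gene coordinates, lengths and GC content came from a GENCODE annotation of GRCm38. Counts were filtered with filterByExpr, scaled by TMM and fitted over all 8 libraries with edgeR 4.0.16 (R 4.3.3), a quasi-likelihood F test and 6 comparisons. P-values were adjusted by the Benjamini-Hochberg method over 20477 genes. The biological coefficient of variation was 3.35%. SEs and p-values rest on this spread between libraries of a condition, and whether separately derived cultures vary more was not tested. The labels and methods describe the replicates as independent, and with 2 libraries per condition the spread between them is estimated with support from all genes. Counting intervals were not needed, since each of the 9 genes had at least 315 reads in each library.

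As alternatives, DESeq2 1.42.0, other scalings and filters, fits of 2 conditions, a replicate block, removal of a spline trend (5 degrees of freedom) on GC content and gene length, and leaving out each library were run. On counts simulated for 19979 genes with 200 changed between NRRA and Veh, edgeR called 165 of the 200 and 11 others. The changes set in were 2-fold or 4-fold, and edgeR called 67 of 91 tested at 2-fold and 98 of 103 at 4-fold. Changes under 2-fold, the size seen in the 9 genes, were not simulated, so their rate of detection is not known from it. All 9 genes are named throughout. From each other list at most 4 genes are named, those with the largest absolute change in NRRA vs Veh among genes with an adjusted p under 0.05 and a mean of at least 50 counts. Genes named beside these were chosen after their values were seen. The 9 genes and all lists were chosen with earlier results of these data known.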

Additional observations from a re-analysis of the deposited data

Results flagged for a closer look

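In 4 of 9 genes the effect of RA differed between restricted and complete medium by the interaction term of the edgeR fit, given here as NRRA vs NR minus RA vs Veh on the log2 scale. *Ezh1* differed by 0.23 (adjusted p = 0.0414), since RA lowered it less under restriction. *Ezh2* differed by 0.36 (adjusted p = 0.00664), since RA raised it more under restriction. *Bmi1* differed by -0.31 (adjusted p = 0.0175), with an RA effect of 0.16 in complete medium, which did not pass, and of -0.15 under restriction. With the GC content and length trend removed these were -0.12, which did not pass, and -0.28. *Scml2* differed by -0.23 (adjusted p = 0.0319). Among all genes, 13% passed this test.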

How the results depend on the processing

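Over the 8 fits that each left out 1 library, the number of the 9 genes called was 6 to 7 in RA vs Veh, 4 to 4 in NR vs Veh, 7 to 7 in NRRA vs Veh, 4 to 5 in NRRA vs RA, 4 to 7 in NRRA vs NR and 0 to 5 for the interaction. The count was 4 without the first NR library in NRRA vs NR. For the interaction it was 2 without the second RA library, 1 without the first NR library, 1 without the first NRRA library and 0 without the second NRRA library, and 2 with the GC content and length trend removed. The falls of *Ezh1*, *Jarid2* and *Cbx7* with RA, of *Ezh2* in NR and the rise of *Cbx2* in NRRA against Veh passed in 8 of 8 fits. DESeq2 lost the calls of *Suz12* (adjusted p = 0.115) and *Bmi1* (adjusted p = 0.0848) in NRRA vs NR. It gained the call of *Jarid2* in NRRA vs RA (adjusted p = 0.0494).

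Reversals among the alternatives other than leaving out a library concerned values that had not passed the test. *Cbx2* in RA vs Veh was -0.00089 with DESeq2, -0.0015 with its size factors and -0.0085 with no filter. *Ezh2* in NRRA vs Veh was -0.01 with DESeq2 and with its size factors, -0.0019 in a fit of these conditions alone and -0.20 with the trend removed. *Suz12* in NRRA vs RA was -0.01, -0.01, -0.0025 and -0.07 in the same order. *Eed* in NRRA vs RA was 0.007 with library totals and 0.01 with no filter, and the *Jarid2* interaction was 0.0032 with no filter. With the trend removed *Bmi1* was -0.12 in RA, *Eed* was -0.01 in RA, -0.04 in NR, -0.06 in NRRA and -0.02 in NRRA vs NR, *Ezh1* was -0.01 in NR, *Scml2* was -0.0072 in NRRA vs NR and the *Cbx7* interaction was -0.04. The cause was not tested. When libraries were left out, values ran from -0.0058 to 0.10 (*Eed*, NR vs Veh), -0.02 to 0.01 (*Eed*, NRRA vs RA), -0.03 to 0.05 (*Eed*, NRRA vs NR), -0.04 to 0.05 (*Ezh2*, NRRA vs Veh), -0.01 to 0.02 (*Suz12*, NRRA vs RA), -0.10 to 0.09 (*Cbx7*, interaction), -0.02 to 0.06 (*Cbx2*, RA vs Veh), -0.0051 to 0.06 (*Ezh1*, NR vs Veh) and -0.05 to 0.02 (*Jarid2*, interaction).

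Scaling by library totals moved the share of calls that were higher from 45.8% to 64.6% in RA vs Veh, from 51.2% to 63.1% in NRRA vs Veh and from 49% to 63.8% in NRRA vs NR. The replicate numbers did not pair the libraries (correlations of deviations from -0.088 to 0.075). A replicate block left 6, 4 and 7 genes called in RA, NR and NRRA against Veh (42.7%, 43.7% and 58.6% of all genes). It left 4 in NRRA vs RA (40.2%), 7 in NRRA vs NR (43.1%) and 4 for the interaction (12.6%). The *Jarid2* call in NR vs Veh was lost (-0.11, adjusted p = 0.0557). For the interaction over all genes, DESeq2 called 1715 and edgeR 2652.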
